A study of Mus musculus with 3 samples.

Results

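The 7 miRNAs described here are those commonly used to recognise RNA of red blood cells and of vessels. They comprise 3 erythroid miRNAs, miR-451 (MIMAT0001632), miR-486 (MIMAT0003130) and miR-144 (MIMAT0000156), 2 endothelial miRNAs, miR-126-3p (MIMAT0000138) and miR-126-5p (MIMAT0000137), and 2 miRNAs of mural cells, miR-143 (MIMAT0000247) and miR-145 (MIMAT0000157). They were picked by miRBase identifier and known site of expression, with no threshold on their values, and all 7 were present among the 602 miRNAs of the NanoString panel. The table lists identifiers only, and the names of these 7 come from the definition of the set.

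The levels were measured in Müller glia (MG), the main glia of the retina, that had been sorted by flow cytometry for the tdTomato reporter. Recombination was driven by tamoxifen-inducible Cre under the Rlbp1 promoter, which is active in MG and, in the eye, also in the retinal pigment epithelium. Every sample was 1 pool from adult mice given tamoxifen at 75 mg/kg, on 3 consecutive days per the labels and 4 per the methods. The wild type sample came from 40 retinas of undamaged Rlbp1-CreER:tdTomato mice. The light damage (LD) sample came from 44 retinas taken 7 days after an 8 h exposure to bright light, from Rlbp1-CreER:tdTomato mice that had been crossed to the albino Swiss Webster strain. The Dicer-cKO sample came from 26 retinas of Rlbp1-CreER:tdTomato:Dicerf/f mice, in which the Cre had deleted Dicer 1 month earlier; Dicer cuts precursors into mature miRNAs. The wild type and Dicer-cKO data had been measured for an earlier study and were normalized together with the LD data. In the comparisons with LD, differences of strain or of measurement series therefore cannot be told apart from those of condition. The sort took the brightest tdTomato+ cells of papain-dissociated retinas, and Dicer is lost only from cells in which Cre was active. The glial identity of the sorts could not be checked by named glial miRNAs, since the identifiers could not be paired with names. With 1 sample per condition no spread between replicates exists and no test was possible. Each ratio is accompanied by a 95% interval (Clopper-Pearson) for counting error only. The interval takes the counts left after background subtraction as plain counts. It leaves out the counting error of the background taken off and is therefore too narrow, most of all for low counts. For a ratio, more than counting error means here that this interval left out 1.

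Red blood cells and the vessel wall each carry characteristic miRNAs. miR-144 and miR-451 are made from one transcript during red cell maturation, and miR-451 is abundant in circulating red cells. Its precursor is cut by Ago2 and does not need Dicer. miR-486 lies in the gene of the red cell membrane protein ankyrin 1 and is found in red cells and muscle. miR-126 lies in an intron of Egfl7, a gene of endothelial cells, and acts on angiogenic signalling there. miR-143 and miR-145 are transcribed together in smooth muscle cells and pericytes, the mural cells that surround vessels. In the retina MG wrap the capillaries with their endfeet.

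The mature sequences of miR-126-3p, miR-451 and miR-144 are shown because miR-126-3p was above all negative controls in every sample and the other two form the erythroid cluster. They were taken from RefSeq (GRCm38.p6), where 3 of the 7 members were matched and kept. The other members were not matched to a single entry or were left out by their chromosome. Bases 2 to 8, the seed that pairs with targets, are in capitals.
miR-126-3p: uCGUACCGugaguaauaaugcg
miR-451: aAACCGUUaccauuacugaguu
miR-144: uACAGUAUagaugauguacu
None of these seeds was shared with another of the 1679 mature miRNA names of that source. miR-126-3p lies at chr2:26591402-26591423 on the plus strand, within the span of Egfl7 at chr2:26581083-26592682. Another miRNA gene, Mir126b, lies at chr2:26591363-26591420, inside the span of Mir126a. miR-144 and miR-451 lie on the plus strand at chr11:78073047-78073066 and chr11:78073186-78073207, and their hairpins are 99 bases apart. Mir486 lies at chr8:23142555-23142682, within the span of Ank1.

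The authors subtracted a background, taken from negative controls, and multiplied each sample by 1 factor so that 4 housekeeping mRNAs reached the same geometric mean. The deposited values are therefore normalized counts, and the counts before scaling were recovered by dividing by the factors, which were 1.15 for wild type, 2.04 for LD and 4.42 for Dicer-cKO. Before scaling, all miRNAs together summed to 678751 counts in the wild type sample, 230245 in the LD sample and 44290 in the Dicer-cKO sample. A value that did not exceed the background appears as 1 count, which reads 1, 2 and 4 normalized counts in the 3 samples and means that the miRNA was not detected. Of the 602 miRNAs, 43.2% were at this lowest value in wild type, 59.1% in LD and 59.6% in Dicer-cKO MG. The highest of the 8 negative controls, the lowest ERCC spike-in rows, had 23.4, 31.5 and 38.6 counts in the 3 samples. The next highest had 18.4 counts in wild type, 5.5 in LD and the lowest value in Dicer-cKO MG. Different probes capture their targets with different efficiency, so that levels were compared between samples and not between miRNAs.

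The erythroid miRNAs were at or next to the lowest value in all 3 samples. miR-451 and miR-144 were at the lowest value throughout, which reads 1 normalized count in wild type, 2 in LD and 4 in Dicer-cKO MG. miR-486 had 2 normalized counts in wild type MG, which is 1.38 counts before scaling, and the lowest value of 2 and 4 in the LD and Dicer-cKO samples. Of the 9 erythroid values 8 were thus at the lowest value, and all 3 miRNAs stayed under 3 counts in every sample. Such low values were common on the panel, since 230 of the 602 miRNAs (38.2%) were under 3 counts in every sample. A value at the floor allows up to 3 counts, that is 3.46 normalized counts in wild type, 6.11 in LD and 13.3 in Dicer-cKO MG. The limit was loosest in the Dicer-cKO sample, which had the largest scaling factor. The limits take counting error only and leave out the scatter of the background. No ratio was formed for these miRNAs, because both samples of each comparison were under the floor.

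**Figure D1:**
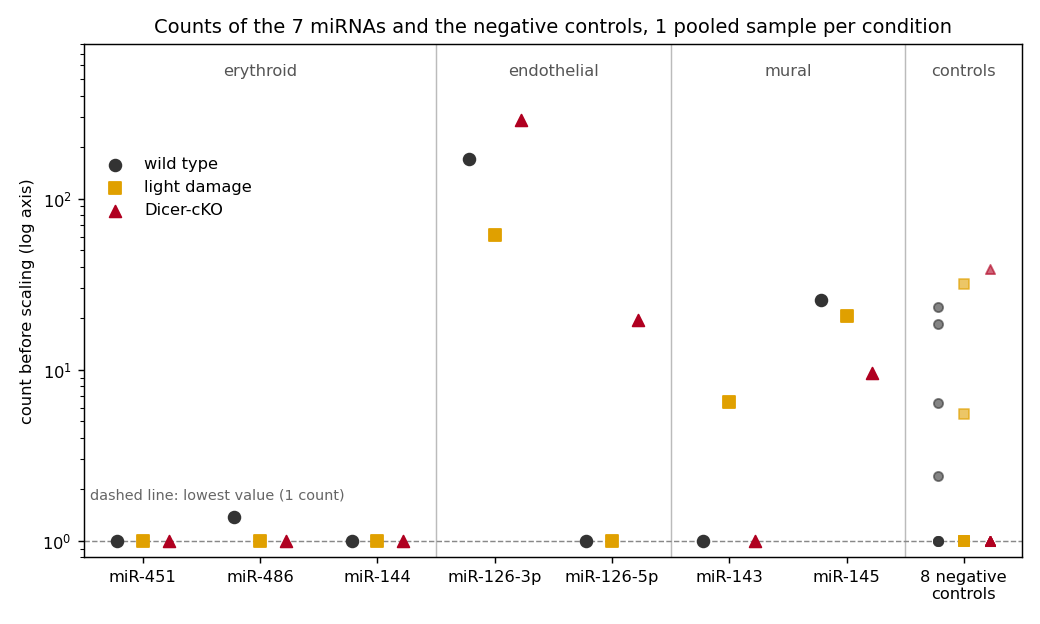
Counts before scaling (log axis) of the 7 miRNAs and of the 8 negative controls in the 1 pooled wild type, LD and Dicer-cKO sample; each point is 1 row in 1 sample and the dashed line is the lowest value of 1 count. miR-126-3p was above all negative controls in all 3 samples, whereas the erythroid miRNAs lay at or near the lowest value.

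miR-126-3p, the main strand of the endothelial miRNA, was the 1 member found above every negative control in all 3 samples. Its level was 196 normalized counts in wild type, 125 in LD and 1267 in Dicer-cKO MG. Before scaling these were 169, 61.5 and 287 counts. The order was therefore Dicer-cKO, wild type, LD, and in the authors' scaling neighbours in this order differed by more than counting error. In a pooled sample, more cells of a type and more RNA per cell cannot be told apart.

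Compared with wild type MG, the level of miR-126-3p in the Dicer-cKO sample was 6.46-fold higher (95% interval 5.36 to 7.91). It was the 1 of the 7 members with a mean of at least 100 normalized counts over the 3 samples, the minimum used for the comparison with the panel. That mean includes the samples compared, so a miRNA low in 1 sample can pass by a high level in another. MIMAT0000233 passed with 64 normalized counts in wild type, 87 in LD and 379 in Dicer-cKO MG. Shares, ranks and nearest miRNAs among those that passed are therefore not independent of the levels compared. Of the 104 miRNAs with such a mean, 20 (19.2%) were at least 2-fold above wild type in the Dicer-cKO sample. That share was 39.4% at the same total miRNA count. In the authors' scaling, 5 of the 104 had a higher ratio than miR-126-3p. The median ratio of the 104 was 0.388. The increase was also present in the counts before scaling, with a ratio of 1.69 (1.40 to 2.07), while the 5 most abundant ERCC spike-ins of the same samples had ratios of 1.18 to 1.39. The positive control of lowest count, with 28.4 counts in wild type MG, had a ratio of 2.38. With the samples scaled to the 6 highest ERCC rows the ratio of miR-126-3p was 1.19 (0.987 to 1.46), which does not exceed counting error. These 6 rows include that control of lowest count, with the same weight as the others. A scaling to the 5 most abundant rows was not run. Over the 11 alternative settings the ratio ranged from 1.19 to 26.6 and stayed above 1 in all 11.

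After LD, miR-126-3p was 0.638-fold the wild type level (0.475 to 0.870) in the authors' scaling, and the direction depended on the scaling. Of the 104 miRNAs 41 (39.4%) were at or below 0.5-fold after LD, which miR-126-3p was not. That share was 20.2% at the same total miRNA count and 52.9% at a mean of at least 20. In the authors' scaling the median ratio of the 104 was 0.613. miR-126-3p thus lay close to the middle of the panel, with 49 miRNAs above and 54 below it. Under 4 of the 11 alternatives the ratio was above 1, at the most 1.64 (1.22 to 2.23) at an equal total in every sample that left out the most abundant miRNA after LD. With the same total miRNA count it was 1.07 (0.795 to 1.45). Before scaling it was 0.362 (0.270 to 0.494).

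The direct comparison of LD with Dicer-cKO MG gave a ratio of 0.0987 (0.0743 to 0.131). The level was thus 10.1-fold higher in Dicer-cKO MG (7.62 to 13.5). Of the 104 miRNAs 13 (12.5%) were at or below 0.5-fold in this comparison. That share was 32.3% at a mean of at least 20 and 36.5% at the same total miRNA count. In the authors' scaling, 2 of the 104 had a lower ratio than miR-126-3p, against a median ratio of 1.67. The ratio of miR-126-3p stayed below 1 under all 11 alternatives, at 0.0412 to 0.268. The wild type sample serves both of the other comparisons, so these 3 ratios are not independent of each other.

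**Figure D2:**
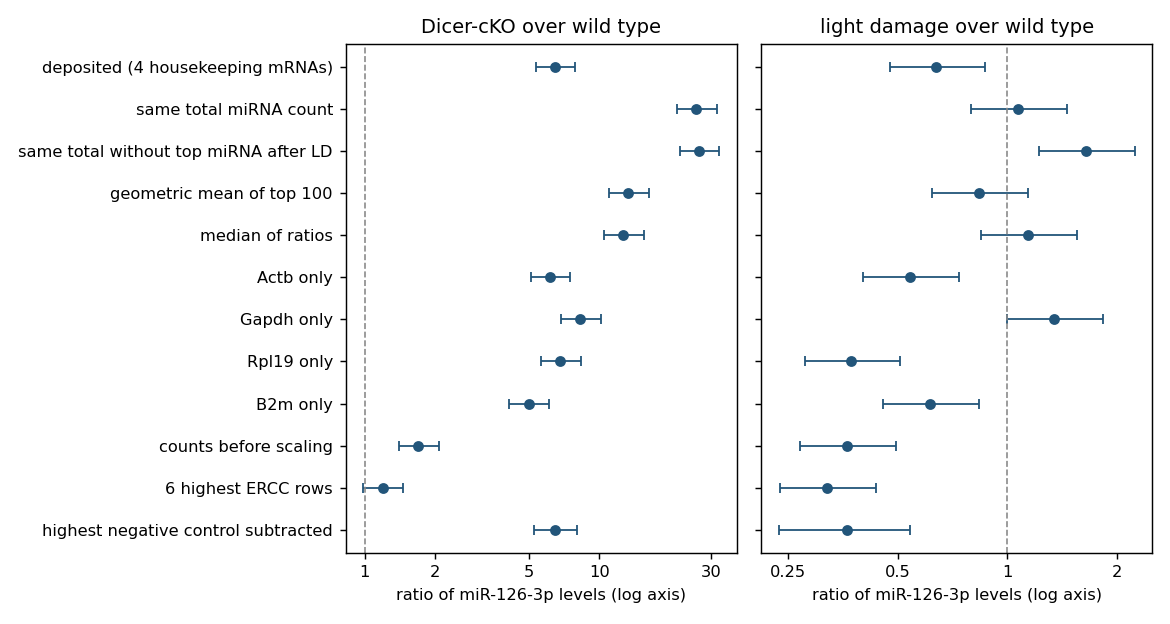
Ratio of the miR-126-3p level in Dicer-cKO over wild type MG (left) and in LD over wild type MG (right), log axes. The deposited values and 11 other settings are shown. Points are ratios and bars are 95% intervals for counting error of the counts left after background subtraction. All Dicer-cKO ratios were above 1, from 1.19 to 26.6, whereas the LD ratio ran from 0.320 to 1.64.

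A level below wild type in LD and above it in Dicer-cKO MG, as found for miR-126-3p in the authors' scaling, was seen for 7 of the 104 miRNAs (6.73%), while 66 were lower in both and 18 higher in both. The pair of miRNAs closest to miR-126-3p in both log2 ratios to wild type (pseudocount 1, 3 samples) was MIMAT0000212 and MIMAT0000544, which the sources used here do not pair with names. The levels of MIMAT0000212 were 363 normalized counts in wild type, 414 in LD and 1811 in Dicer-cKO MG, at a distance of 0.913 log2 units. Those of MIMAT0000544 were 317, 221 and 1024, at a distance of 1.01.

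**Figure D3:**
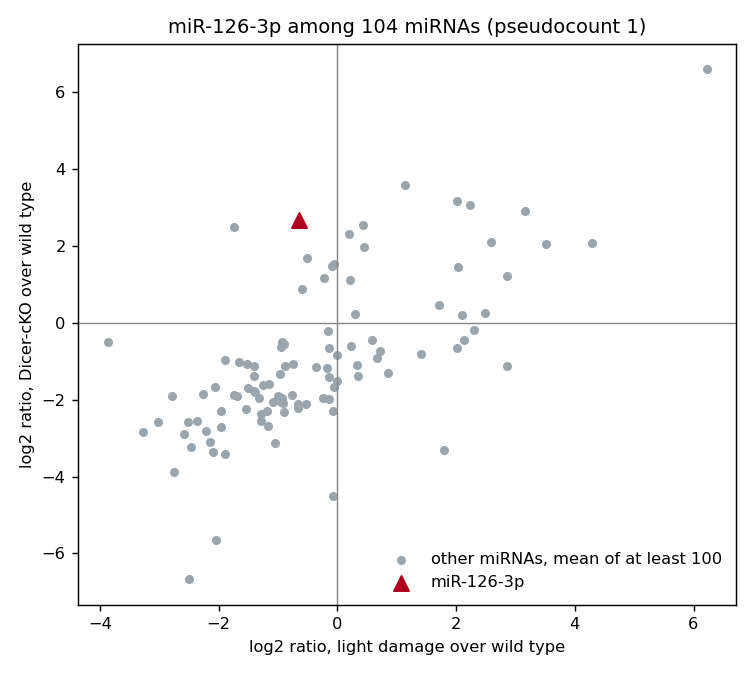
Log2 ratio to wild type after LD (horizontal axis) and in Dicer-cKO MG (vertical axis) of 104 miRNAs whose mean reached 100 normalized counts, pseudocount 1; each point is 1 miRNA and both axes share the wild type sample. miR-126-3p, at -0.64 and 2.69, is 1 of 7 miRNAs in the upper left part.

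miR-126-5p, the other strand of the same hairpin, was above the lowest value in the Dicer-cKO sample only. Its level was 1 normalized count in wild type and 2 in LD MG, the lowest values, and 87 in Dicer-cKO MG, which is 19.6 counts before scaling. Set against the floor of 3 counts per sample, the Dicer-cKO level was 25.0-fold the wild type floor (interval of the ratio 7.57 to 134). It was 14.2-fold the LD floor (4.29 to 76.1). These ratios are no lower bounds, since counting error alone allows the lower ends of their intervals. The ratio to the wild type floor was 6.54 before scaling (1.98 to 35.0) and 4.61 with ERCC rows (1.39 to 24.7). The LD floor was 0.153-fold the Dicer-cKO level before scaling and 0.191-fold with ERCC rows. After subtraction of the highest negative control the difference was no longer found. The 19.6 counts were above 7 of the 8 negative controls of that sample but below the highest, so that detection rested on a count within the range of the controls.

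The mural miRNAs were near the limit of detection. The level of miR-145 was 29 normalized counts in wild type, 42 in LD and 43 in Dicer-cKO MG. Before scaling it had 25.4, 20.5 and 9.63 counts, and it exceeded the highest negative control in wild type MG only. The ratio to wild type was 1.45 (0.742 to 2.64) after LD and 1.48 (0.656 to 3.30) in Dicer-cKO MG, and that of LD to Dicer-cKO was 0.977 (0.411 to 2.20). With the scaling of the authors, all 3 intervals included 1, which does not show that the levels were the same. Both the direction and the call depended on the scaling. In LD over wild type MG the ratio was 2.42 (1.24 to 4.42) at the same total miRNA count, 3.72 (1.91 to 6.79) at that total without the most abundant miRNA after LD, and 0.822 (0.421 to 1.5) before scaling. In Dicer-cKO over wild type MG it was 5.94 (2.63 to 13.2) at the same total and 0.387 (0.171 to 0.862) before scaling. In LD over Dicer-cKO MG it was 0.408 (0.172 to 0.920) at the same total and 2.66 (1.12 to 5.99) with ERCC rows. miR-143 had 13 normalized counts after LD, which is 6.5 counts before scaling, and the lowest value in wild type (1) and Dicer-cKO (4) MG. Its level after LD was below the highest negative control and was within counting error of the wild type floor in the authors' scaling (interval of the ratio 0.753 to 21.8). Under 4 of the other scalings the interval left out 1, as with 1.26 to 36.4 at the same total miRNA count and 1.93 to 56.0 at that total without the most abundant miRNA after LD.

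A ratio within a sample does not depend on the scaling factor. The share of miR-126-3p in all miRNA counts was 0.0249% in wild type (0.0213 to 0.0289), 0.0269% in LD (0.0206 to 0.0345) and 0.648% in Dicer-cKO MG (0.575 to 0.727). The shares in wild type and LD MG differed by less than counting error, and that in Dicer-cKO MG was 26.0-fold the wild type share. The larger share in Dicer-cKO MG combined a 1.69-fold higher count with a total that was 15.3-fold smaller than in wild type MG. Without the most abundant miRNA after LD in the total, the share was 0.0257% in wild type (0.0220 to 0.0299) and 0.0427% in LD MG (0.0327 to 0.0547), with intervals that did not overlap. The 4 endothelial and mural miRNAs together had 2.90 counts per 10000 counts of the other 103 miRNAs of mean at least 100 in wild type (2.51 to 3.35), 3.89 in LD (3.10 to 4.76) and 74.6 in Dicer-cKO MG (66.6 to 83.3). The value in LD was 1.34-fold that in wild type MG. Their intervals overlapped, which does not show that the values were the same, and no interval of this ratio was formed. Before scaling the other 103 miRNAs had 670686 counts in wild type and 42362 in Dicer-cKO MG. The 4 endothelial and mural miRNAs summed to 195 and 316 counts in these samples. Most of the counts in this sum were those of the miR-126-3p probe in each sample, which does not compare its level with those of the other miRNAs. Without the single most abundant wild type miRNA among the 103, the values were 4.60 in wild type and 4.38 in LD MG, so that their order was reversed, compared with 89.0 in Dicer-cKO MG. Per 10000 counts of the 23 miRNAs with at least 3000 wild type counts, they were 3.11 in wild type and 4.42 in LD MG.

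**Figure D4:**
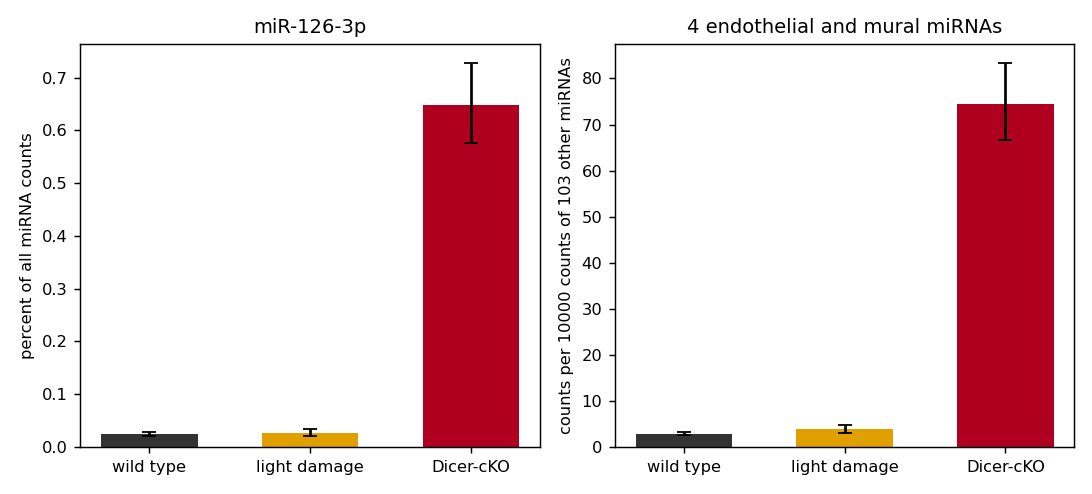
Share of miR-126-3p in all miRNA counts in percent (left) and counts of the 4 endothelial and mural miRNAs per 10000 counts of 103 other miRNAs (right). Each condition is 1 pooled sample. Bars start at 0 and whiskers are 95% intervals for counting error of the counts left after background subtraction. Both values were far higher in Dicer-cKO MG, at 0.648% and 74.6, than in the other samples. The counts that they were divided by were smallest in Dicer-cKO MG.

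Over the 7 members, by more than counting error in the authors' scaling, 1 was lower and 0 were higher in LD than in wild type MG. Of all 602 miRNAs, 26.7% were lower and 9.63% higher by the same criterion. In Dicer-cKO against wild type MG 0 members were lower and 2 higher, beside 19.3% and 9.80% of the 602. In LD against Dicer-cKO MG 2 members were lower and 0 higher, beside 14.1% and 12.3% of the 602. These tallies depended on the scaling. At the same total miRNA count, 0 members were lower in LD than in wild type MG and 2, miR-143 and miR-145, were higher. The shares of the 602 were then 16.8% and 15.4%. No test set the 7 members against the panel. In the authors' scaling, the members that differed were miR-126-3p in all 3 comparisons and miR-126-5p in the 2 that include Dicer-cKO MG. In both comparisons with wild type MG, 4 of the 7 members were under the floor of 3 counts in both samples, as were 39.5% of the 602 miRNAs for LD and 42.5% for Dicer-cKO MG. Whether vessel cells or their RNA were present in the sorts was not tested. The part of such RNA in the other changes of these samples was not tested either. The defining erythroid markers miR-451 and miR-144 were at the lowest value in every sample. Of the 4 vessel miRNAs, miR-143 was at the lowest value in all but the LD sample.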

How the data were processed

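miRNAs of 3 pooled samples of sorted MG were tagged and counted on the NanoString nCounter platform without amplification. The authors processed the counts with nSolver 4.0, and the deposited signal is a count of molecules after subtraction of the mean of 8 negative controls and scaling to 4 housekeeping mRNAs; 6 positive controls were also run. No aligner or genome is involved. Scaling factors were worked out from those rows, housekeeping and nmiR, that are given to 2 decimals. If the 8 lowest ERCC rows are the negative controls, at least 12.6, 6.17 and 5.52 counts were subtracted in the wild type, LD and Dicer-cKO samples.

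Ratios used the deposited values, intervals the counts before scaling, rounded and set to 3 where lower. The background had already been taken off these counts, and its counting error is not part of the intervals. A member was taken to differ where the 95% interval left out 1. All 7 members are named. The alternatives were other scalings, the counts before scaling, a stricter background, a 99% interval and other minimum levels. The members and lists were chosen with earlier results of these data known. The 6 lists of other cell types (34 miRNAs, glia included) could not be matched to identifiers and are not reported, so that the planned glial reference was replaced by its alternative, all other miRNAs of mean at least 100. Scripts were tested on simulated counts without background scatter. The coverage of the intervals was checked only where both expected counts were at least 100, so that intervals of lower counts were not tested. The work was done in Python 3.11.15 (scipy 1.17.1, pandas 2.3.3, numpy 2.4.6) and plotted with matplotlib 3.10.9.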

Additional observations from a re-analysis of the deposited data

How the results depend on the processing

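No paired analysis was possible because every condition was represented by 1 sample, and no replicate could be left out. The scaling to the 6 highest ERCC rows, the subtraction of the highest negative control and the reference of 23 miRNAs with at least 3000 wild type counts were chosen after seeing the data. Where a value changed, the cause was not tested. The erythroid and mural miRNAs stayed within the range of the negative controls except miR-145 in wild type MG, and depth as against absence of these miRNAs was not tested.

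miR-126-3p in LD over wild type MG was 1.07 at the same total miRNA count, 1.64 at that total without the most abundant miRNA after LD, 1.14 by the median of ratios and 1.34 with Gapdh only, the reverse of the deposited direction. It was 0.373 with Rpl19 only, 0.362 before scaling, 0.320 with ERCC rows and 0.362 after subtraction of the highest negative control. In Dicer-cKO over wild type MG it was 25.9, 26.6 and 12.7 under the first 3 of these, 13.3 by the geometric mean of the top 100, 8.30 with Gapdh, 5.0 with B2m, 1.69 before scaling and 1.19 with ERCC rows. In LD over Dicer-cKO it was 0.0412 at the same total, 0.0616 without the most abundant miRNA, 0.0628 by the top 100, 0.162 with Gapdh, 0.0545 with Rpl19, 0.214 before scaling, 0.268 with ERCC rows and 0.0557 after subtraction of the highest negative control.

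After LD, 0 members were lower than in wild type MG at the same total, at the same total without the most abundant miRNA, by the top 100, by the median of ratios and with Gapdh. The number higher was 2 at the same total, 3 without the most abundant miRNA, 2 by the median of ratios and 2 with Gapdh, namely miR-143 and miR-145, joined by miR-126-3p in the count of 3. In Dicer-cKO MG 1 member, miR-145, was lower than in wild type MG before scaling and 1 with ERCC rows. The number higher was 1 with ERCC rows (miR-126-5p) and 1 after subtraction of the highest negative control (miR-126-3p), and it was 3, with miR-145 added, at the same total, without the most abundant miRNA, by the top 100 and by the median of ratios. In LD against Dicer-cKO MG 1 was lower after that subtraction, 3 were lower at the same total (miR-145 added) and 1, miR-145, was higher with ERCC rows. A 99% interval gave the same members.

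The share of miR-126-3p was 0.0427% in LD and 0.0257% in wild type MG without the most abundant miRNA after LD, a difference beyond counting error. The 4 vessel miRNAs had 4.60 (wild type) and 89.0 (Dicer-cKO) counts per 10000 without the most abundant wild type miRNA, and 98.6 in Dicer-cKO MG over the 23 miRNAs. The percent of miRNAs at most 0.5-fold after LD was 52.9 at a mean of at least 20 and 20.2 at the same total. That of miRNAs at least 2-fold above wild type in Dicer-cKO MG was 39.4 at the same total. That of miRNAs at most 0.5-fold in LD over Dicer-cKO was 32.3 at a mean of at least 20, 26.9 without a filter on the mean and 36.5 at the same total. Over the 12 alternatives, the percent of all 602 miRNAs lower in LD than in wild type MG by the interval ran from 8.47 to 41.2 and the percent higher from 5.32 to 20.9. For Dicer-cKO over wild type MG they ran from 2.99 to 45.8 and from 1.16 to 29.6, and for LD over Dicer-cKO from 2.66 to 24.6 and from 3.65 to 23.8.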
